A study of Mus musculus with 6 samples.

Results

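miR-124 and miR-9 are the miRNAs most closely tied to neuronal identity, and their 4 mature arms were followed here in extracellular vesicles (EVs, membrane particles shed by cells) recovered from mouse brain. The arms were taken by name from the deposited table of RPM, read counts scaled to a common library total: mmu-miR-124-3p, mmu-miR-124-5p, mmu-miR-9-5p and mmu-miR-9-3p, 4 of 1926 miRNA rows, of which 803 were above 0 in at least 1 library. No merged row held any of them. The series has 6 small RNA libraries. CON-BDEV are vesicles of control mice, and SE-BDEV those of mice that had gone through status epilepticus (a long, self-sustaining seizure), with 3 libraries per group and day 10 in every title. The sources used here do not give the event from which the day is counted, the seizure agent, or the strain, age and genotype of the mice. The labels also do not say whether a library is 1 animal or a pool, and the p-values reflect only library-to-library spread, which may be technical.

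miR-124 is made in neurons from their birth onward and is a brain-restricted miRNA, which represses non-neuronal transcripts, among them those of the splicing factor Ptbp1. miR-9 is made in neural progenitors and in neurons. Its 5p arm targets the transcriptional repressor REST and its 3p arm, often written miR-9*, targets the REST cofactor CoREST, so both arms have described roles. REST in turn represses miR-124 and miR-9 genes outside neurons. In most hairpins 1 arm is loaded into Argonaute as the guide and the other is degraded, and the ratio of the arms differs from hairpin to hairpin.

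The sequences of miR-9 are shown because both of its arms were abundant, and because its 3 genes give the same products. They come from RefSeq (GRCm38.p6), whose table matched 1637 of the 1926 rows and 2 of the 4 arms. In the mature sequences the capitals mark the seed, bases 2 to 8, through which a miRNA pairs with its targets. The arms carry unrelated seeds, and no other of the 1679 mature names in that table carried either one. The similarly named miR-9b arms are shown with them because they share stretches of sequence with miR-9 but carry other seeds. Their likeness is that of opposite strands. All of miR-9b-3p is the reverse complement of part of miR-9-5p, and most of miR-9b-5p is the reverse complement of part of miR-9-3p.
miR-9-5p: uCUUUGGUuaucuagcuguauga
miR-9-3p: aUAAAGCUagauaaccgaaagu
miR-9b-5p: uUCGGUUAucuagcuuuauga
miR-9b-3p: aUACAGCUagauaaccaaaga
In the hairpins the capitals mark both mature arms, which are identical in all 3 genes, while the loop and flanks differ.
Mir9-1: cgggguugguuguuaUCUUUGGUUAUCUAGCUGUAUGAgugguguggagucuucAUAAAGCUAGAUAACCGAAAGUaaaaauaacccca
Mir9-2: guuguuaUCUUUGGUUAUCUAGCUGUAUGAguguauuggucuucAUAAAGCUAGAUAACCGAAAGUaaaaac
Mir9-3: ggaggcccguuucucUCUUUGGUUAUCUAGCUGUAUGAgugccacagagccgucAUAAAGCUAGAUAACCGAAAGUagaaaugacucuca
A mature read therefore cannot be assigned to 1 of the 3 genes, and the RPM of each miR-9 arm is the sum over them. miR-9b-5p, miR-9b-3p and miR-124b-3p were listed at 0 in all 6 libraries. In GENCODE M21 (GRCm38) Mir9-1 lies within the long non-coding RNA gene Gm3764 but not inside an exon, Mir9-2 inside an exon of C130071C03Rik, and Mir9-3 within Mir9-3hg but not inside an exon. A miRNA gene on the opposite strand, Gm25641, also encloses Mir9-1. Mir124a-1 lies inside an exon of Mir124a-1hg, Mir124a-2 within Mir124-2hg but not inside an exon, and no gene encloses Mir124a-3. The submitters' notes name the build mm9, so no coordinates are given.

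Libraries held 4400167 to 9391887 reads assigned to miRNAs. Among markers for the source of the material, 6 of 6 neuronal miRNAs were above 0, of which 2 are miR-124-3p and miR-9-5p themselves. They summed to between 26528 and 31512 RPM across CON-BDEV and between 23189 and 41620 RPM across SE-BDEV. For miR-144-3p and miR-451a, abundant in red blood cells, the table lists 0 throughout, while miR-486a-5p/486b-5p, also known from red blood cells, lay between 83.6 and 199 RPM across CON-BDEV and between 102 and 111 RPM across SE-BDEV. Of 3 oligodendrocyte miRNAs, miR-219a-5p is listed at 0 throughout, and the list summed to between 137 and 170 RPM across CON-BDEV and between 198 and 296 RPM across SE-BDEV. Within it miR-338-3p was higher in every SE-BDEV library. The groups overlapped for miR-219a-2-3p, at 26.0 to 35.7 RPM (CON-BDEV) and 20.7 to 47.3 RPM (SE-BDEV). The 2 endothelial miRNAs summed to 2828 to 4276 RPM (CON-BDEV) and 4116 to 6342 RPM (SE-BDEV). For 4 choroid plexus and ependyma miRNAs the sums were 310 to 718 RPM (CON-BDEV) and 547 to 793 RPM (SE-BDEV). The liver miRNA miR-122-5p lay at 75.0 to 79.7 RPM (CON-BDEV) and 88.7 to 132 RPM (SE-BDEV). Of 3 muscle miRNAs 2 had a row of their own, with sums of 139 to 183 RPM (CON-BDEV) and 168 to 263 RPM (SE-BDEV). These 2 went opposite ways, with log2 differences of 0.83 for miR-1a-3p and -0.28 for miR-206-3p, SE-BDEV minus CON-BDEV. A list of 6 microglial and inflammatory miRNAs, all above 0 in at least 1 library, summed to between 85.2 and 119 RPM across CON-BDEV and between 472 and 601 RPM across SE-BDEV, and the part of these lists in the differences of the 4 arms was not tested. Both libraries numbered 3 stood apart from the rest in miR-24-3p. They were also the highest for miR-124-3p, at 9134 and 9540 RPM against at most 7990 RPM elsewhere. miR-24-3p is listed at 0 in the other 4 and reached 3544 RPM (CON-BDEV 3) and 3128 RPM (SE-BDEV 3) in these. Differences of the arms are given with and without these libraries.

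By abundance the arms fell in the order miR-124-3p, miR-9-5p, miR-9-3p and miR-124-5p, with means of 8137, 4799, 2245 and 26.0 RPM over the 6 libraries. This order held in each library. RPM counts reads, and arms can differ in how well they are captured, so the order is one of reads and not of molecules. Together the 4 arms made up 1.40% ± 0.149 of the RPM of CON-BDEV libraries and 1.64% ± 0.476 of that of SE-BDEV libraries (SD, n = 3 each). The let-7 family took 76.2% to 81.5% of RPM in each library, and of the remainder the 4 arms held 7.05% ± 0.369 (CON-BDEV) and 7.56% ± 1.40 (SE-BDEV; SD, n = 3 each). An exact two-sided permutation test gave p = 0.9, where 0.1 is the lowest attainable.

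**Figure D1:**
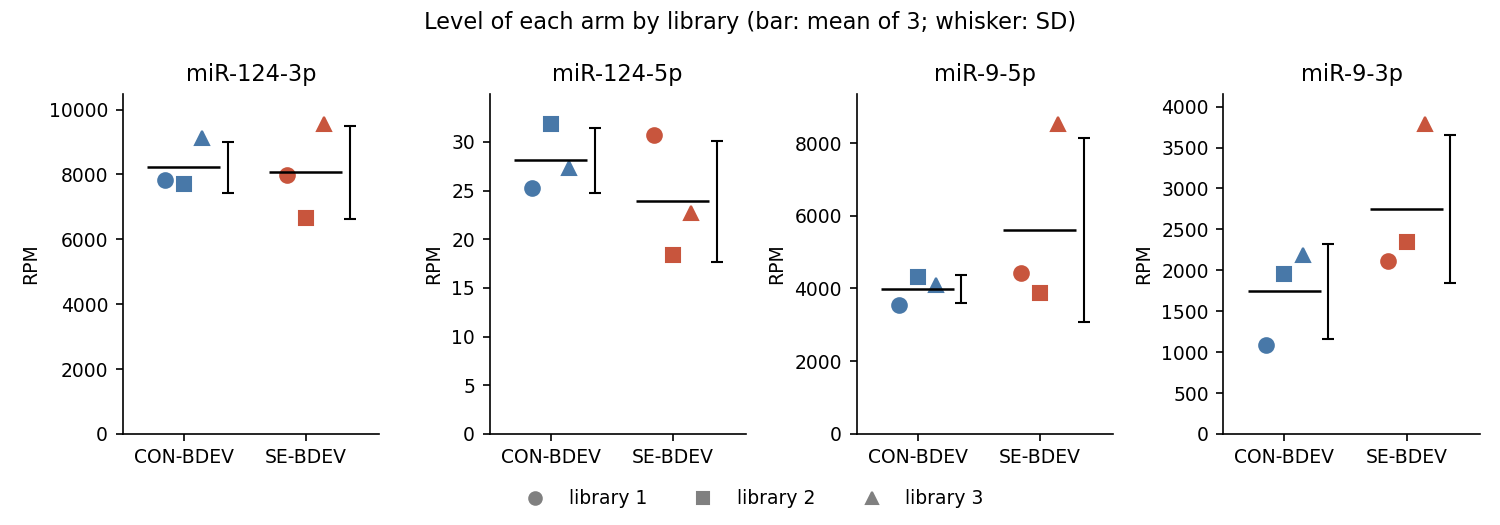
Level of miR-124-3p, miR-124-5p, miR-9-5p and miR-9-3p in RPM (vertical axis, from 0) in the 3 CON-BDEV (blue) and 3 SE-BDEV (red) libraries. Symbols give the library number, horizontal bars the mean and whiskers the SD. miR-124-3p lies between 6654 and 9540 RPM in both groups, and SE-BDEV 3 stands above the other libraries for both miR-9 arms.

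miR-124-3p, the guide arm of the neuronal miR-124, stood at nearly the same mean level in both groups. It was at 7817, 7689 and 9134 RPM in CON-BDEV 1, 2 and 3, and at 7990, 6654 and 9540 RPM in SE-BDEV 1, 2 and 3. The groups overlapped fully, and the highest library in each was the one numbered 3. These values rest on 33244 to 75039 reads per library, for which the counting error is 0.365% to 0.548%, well below the spread between libraries of 9.73% in CON-BDEV and 17.9% in SE-BDEV (coefficient of variation). The log2 difference, SE-BDEV minus CON-BDEV, was -0.038 ± 0.20 (SE, 95% confidence interval -0.46 to 0.39, limma adjusted p = 0.959). In such vesicles a change in the share released by neurons and a change in the miRNA per vesicle cannot be told apart.

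The difference of miR-124-3p had no settled sign. Leaving out SE-BDEV 2 gave 0.0925, CON-BDEV 3 gave 0.0407 and SE-BDEV 3 gave -0.17. Without both libraries numbered 3 the difference was -0.0885. With let-7 left out of the total it was -0.15. As a share of the RPM outside let-7, miR-124-3p was 4.15%, 3.99% and 4.30% in CON-BDEV 1, 2 and 3 and 3.59%, 3.60% and 4.00% in SE-BDEV 1, 2 and 3. On this scale the groups barely overlapped, at CON-BDEV 2 and SE-BDEV 3 (exact permutation p = 0.2). The within-group SD of miR-124-3p on the log2(RPM + 1) scale was 0.21, the 39th smallest of the 308 tested miRNAs, whose median was 0.39.

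miR-124-5p, the arm of the same hairpin that is usually discarded, was at 25.2, 31.8 and 27.4 RPM in CON-BDEV 1, 2 and 3 and at 30.7, 18.4 and 22.7 RPM in SE-BDEV 1, 2 and 3. SE-BDEV 1 lay among the CON-BDEV values and the other 2 SE-BDEV libraries lay below them. With 92 to 288 reads per library its counting error alone was 5.89% to 10.4%. The log2 difference was -0.25 ± 0.32 (SE, 95% confidence interval -0.93 to 0.43, limma adjusted p = 0.785). Without SE-BDEV 2 it was -0.0832, without SE-BDEV 1 it was -0.44, and without both libraries numbered 3 it was -0.24.

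miR-9-5p, the arm that targets REST, was level across 5 libraries and high in 1. It was at 3550, 4309 and 4103 RPM in CON-BDEV 1, 2 and 3 and at 4431, 3887 and 8512 RPM in SE-BDEV 1, 2 and 3. Apart from SE-BDEV 3 the groups overlapped. SE-BDEV 3 was 2.10-fold above the mean of the other 5 libraries, the 15th highest such ratio of the 308 tested miRNAs, whose median was 1.07. The log2 difference between groups was 0.41 ± 0.28 (SE, 95% confidence interval -0.19 to 1.01, limma adjusted p = 0.608). Without SE-BDEV 3 it was 0.0625, and without both libraries numbered 3 it was 0.0856.

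miR-9-3p, the arm that targets CoREST, showed the largest log2 difference of the 4 arms, and it did not pass the test. It was at 1086, 1957 and 2185 RPM in CON-BDEV 1, 2 and 3 and at 2117, 2341 and 3783 RPM in SE-BDEV 1, 2 and 3. CON-BDEV 1 was low, SE-BDEV 3 was high, and the groups overlapped between SE-BDEV 1 and CON-BDEV 3. CON-BDEV averaged 1743 ± 580 RPM and SE-BDEV 2747 ± 904 RPM (SD, n = 3 each). The log2 difference was 0.67 ± 0.32 (SE, 95% confidence interval -0.011 to 1.35, unadjusted p = 0.0532, limma adjusted p = 0.438). Leaving out CON-BDEV 1 gave 0.36, leaving out SE-BDEV 3 gave 0.42, and leaving out both libraries numbered 3 gave 0.61, all in the same direction. SE-BDEV 3 was 1.95-fold above the mean of the other 5.

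None of the 4 arms was called in either direction at an adjusted p under 0.05, and none had an unadjusted p under 0.05. Over all 308 tested miRNAs 3 were called, which is 0.974%, all higher in SE-BDEV, and 10.4% had an unadjusted p under 0.05. With the replicate number as a block 10 were called, 9 higher and 1 lower, and again none of the 4 arms (limma adjusted p = 0.171 for miR-9-3p). Lower calls also appeared without CON-BDEV 2, where 4 were higher and 4 lower. The groups did not overlap for 16.2% of the tested miRNAs, and for none of the 4 arms. In the authors' deposited table, where 1.12% of the 625 miRNAs with an adjusted p were called, 5 higher and 2 lower, the log2 fold changes were -0.11 for miR-124-3p (adjusted p = 0.965) and -0.34 for miR-124-5p (adjusted p = 0.892). The authors' deposited table gave 0.39 for miR-9-5p (adjusted p = 0.799) and 0.56 for miR-9-3p (adjusted p = 0.658). The signs are those of limma for all 4 arms. With 3 libraries per group the intervals still admit a rise of miR-9-3p to 2.55-fold and a fall of miR-124-3p to 0.726 of the control level.

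**Figure D2:**
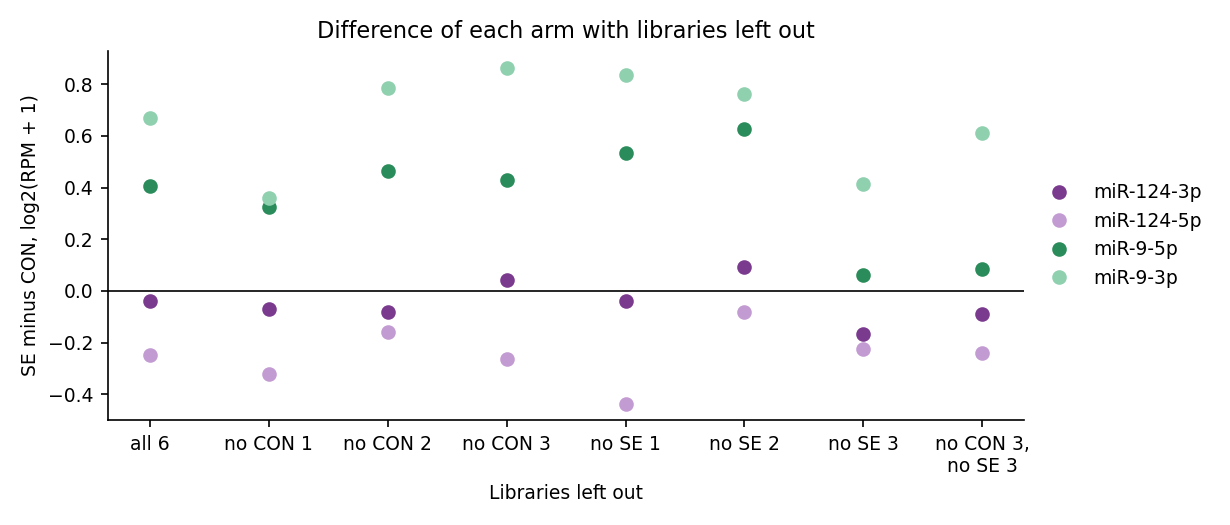
SE-BDEV minus CON-BDEV difference of each arm on the log2(RPM + 1) scale (vertical axis) with all 6 libraries, without each library in turn and without both libraries numbered 3 (horizontal axis). miR-9-3p stays above 0 throughout, from 0.36 to 0.86, miR-9-5p comes close to 0 without SE-BDEV 3, and miR-124-3p falls on both sides of 0.

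The 2 hairpins differed in how their arms were represented. For miR-124 the 3p arm exceeded the 5p arm 310-, 242- and 334-fold in CON-BDEV 1, 2 and 3 and 261-, 361- and 421-fold in SE-BDEV 1, 2 and 3. It thus held 99.6% to 99.8% of the reads of the pair in every library. For miR-9 the 5p arm exceeded the 3p arm 3.27-, 2.20- and 1.88-fold in CON-BDEV 1, 2 and 3 and 2.09-, 1.66- and 2.25-fold in SE-BDEV 1, 2 and 3. CON-BDEV 1, where the 3p arm was low, gave the highest ratio, and the other 5 libraries lay close together. A ratio of arms within a library does not depend on how that library was scaled.

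For 51 hairpin names both arms had a row of their own under the same name and reached a mean of 10 RPM, and on the log2 scale these arms differed by a median of 1.67. Among these 51 names miR-124 was the 4th most unequal at 8.25, behind let-7b, let-7d and miR-151, and the most unequal of the 21 in which the 3p arm was the higher. Another 17 pairs at this level have a numbered or merged name for an arm and were not in the fit, and 4 of them were more unequal than miR-124. These were miR-7a-5p with miR-7a-1-3p (9.28), miR-125b-5p with miR-125b-2-3p (8.98), miR-138-5p with miR-138-1-3p (8.29) and, with the 3p arm higher, miR-128-3p with miR-128-1-5p (8.72). In such pairs the unnumbered arm can come from several genes, so the ratio is not that of 1 hairpin. miR-124 and miR-9 have several genes each as well, so theirs are not ratios of 1 hairpin either. miR-9 differed by 1.12, and 19 of the 51 were more even. Yet miR-9-3p had the highest mean RPM of all 51 lower arms, ahead of miR-30a-3p at 1060 RPM and miR-30e-3p at 784 RPM, an order noted after the values were seen. In the 17 other pairs the lower arm reached at most 109.9 RPM. miR-9-3p ranked 26th to 44th among all miRNAs of a library.

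**Figure D3:**
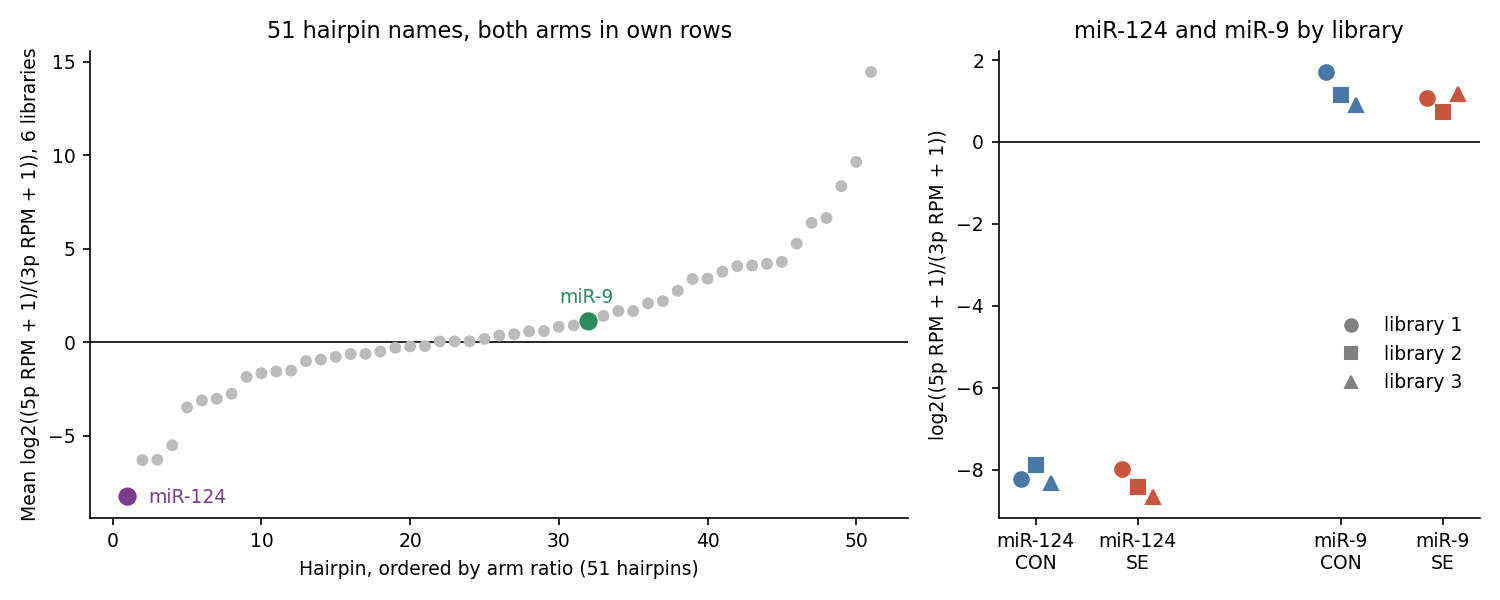
Left, mean log2 ratio of the 5p to the 3p arm over 6 libraries (vertical axis) for 51 hairpin names in rank order (horizontal axis), with miR-124 (purple) lowest and miR-9 (green) slightly above 0. Right, the same ratio in each library for both hairpins, CON-BDEV in blue and SE-BDEV in red, with symbols for the library number. Both groups overlap for each hairpin.

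Neither arm ratio passed the test between the groups. The log2 ratio of 5p to 3p, SE-BDEV minus CON-BDEV, was -0.21 for miR-124 (95% confidence interval -1.05 to 0.63, limma adjusted p = 0.958) and -0.26 for miR-9 (-1.11 to 0.58, limma adjusted p = 0.924). Of the 51 hairpins limma called 0, or 0%, with 5.88% at an unadjusted p under 0.05 and 1.96% without overlap between the groups, and neither miR-124 nor miR-9 was among these. Without CON-BDEV 1 the value for miR-9 was -0.0344, and without both libraries numbered 3 it was -0.52. For miR-124, leaving out CON-BDEV 2 gave -0.0764, SE-BDEV 3 gave -0.0587 and both libraries numbered 3 gave -0.15.

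Set against miR-124-3p in the same library, which again removes scaling, both miR-9 arms had higher means in SE-BDEV. The ratio of miR-9-5p to miR-124-3p was 0.454, 0.560 and 0.449 in CON-BDEV 1, 2 and 3 and 0.555, 0.584 and 0.892 in SE-BDEV 1, 2 and 3. The groups overlapped at CON-BDEV 2 and SE-BDEV 1. The log2 difference was 0.45 (exact permutation p = 0.2, adjusted p = 0.2 over 2 such ratios, smallest possible p 0.1), and it was 0.17 without both libraries numbered 3.

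The ratio of miR-9-3p to miR-124-3p, a comparison added after the values were seen, was 0.139, 0.255 and 0.239 in CON-BDEV 1, 2 and 3 and 0.265, 0.352 and 0.397 in SE-BDEV 1, 2 and 3. The lowest SE-BDEV ratio exceeded the highest CON-BDEV ratio by a narrow margin. Such a separation in this direction was found for 18.9% of the other 307 tested miRNAs when set against miR-124-3p. The log2 difference was 0.71, with an exact permutation p = 0.1, the smallest that 3 against 3 libraries can give, and an adjusted p = 0.2. It was 0.43 without CON-BDEV 1 and 0.70 without both libraries numbered 3.

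No relation between 2 arms across the 6 libraries passed its test. miR-9-5p and miR-9-3p, which come from the same hairpins, gave a Pearson r of 0.82 on the log2(RPM + 1) scale (exact permutation p = 0.0819, adjusted p = 0.492 over 6 pairs of arms). Spearman's rho was 0.49 (exact permutation p = 0.356, adjusted p = 0.711). Without the 2 libraries farthest from the median of miR-9-5p, r was -0.80, so the relation rests on those libraries. miR-124-3p with miR-124-5p gave an r of 0.30 and a rho of 0.029 (exact permutation p = 0.565 and 1), and -0.29 without the 2 libraries farthest from the median. miR-124-3p with miR-9-5p gave an r of 0.65 and a rho of 0.60 (exact permutation p = 0.182 and 0.242), and 0.071 without the 2 libraries farthest from the median. For r the adjusted p over the 6 pairs was 0.75 and 0.546 for these 2 pairs.

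As a description over 6 libraries, the tested miRNAs whose log2(RPM + 1) values followed miR-124-3p most closely were miR-1843a-5p/1843b-5p (Pearson r = 0.95), miR-181b-5p (0.93), miR-128-3p (0.93), miR-369-5p (0.92) and miR-326-3p (0.92). miR-128-3p is itself neuron-enriched and nearly as abundant, at a mean of 7065 RPM. miR-9-5p was followed most closely by miR-137-3p (0.99), miR-29b-3p (0.98), miR-3068-5p (0.97), miR-101a-3p/101b-3p/101c (0.96) and miR-29c-3p (0.96). In these 5 SE-BDEV 3 was 1.94- to 3.44-fold above the mean of the other 5 libraries, as it was 2.10-fold for miR-9-5p. Without SE-BDEV 3 the r of these 5 with miR-9-5p fell to between 0.56 and 0.88, and without both libraries numbered 3 it was between 0.57 and 0.95. For the 5 that followed miR-124-3p the values were 0.88 to 0.98 without SE-BDEV 3 and 0.71 to 0.97 over the 4 libraries numbered 1 and 2. In this order miR-9-3p came 32nd for miR-9-5p, and miR-124-5p came 146th for miR-124-3p. The points share libraries, depth and scaling.

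By mean level miR-124-3p was 14th of the tested miRNAs. Its neighbours were miR-16-5p and miR-127-3p above, at 9668 ± 2065 and 8673 ± 1315 RPM, and miR-151-5p and miR-128-3p below, at 7165 ± 956 and 7065 ± 1729 RPM (SD, n = 6). At 8137 ± 1047 RPM (SD, n = 6) its range over the libraries overlapped that of each of these 4. miR-9-5p was 22nd at 4799 ± 1846 RPM, below miR-125b-5p at 6075 ± 1268 and miR-139-5p at 6035 ± 925 RPM, and above miR-126a-3p at 3879 ± 1042 and miR-103-3p/107-3p at 3823 ± 585 RPM (SD, n = 6). Here too the range of miR-9-5p overlapped that of each neighbour.

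Of 25 other neuron-enriched miRNAs on a list set for this comparison, 23 had a row of their own and 20 reached a mean of 10 RPM. None of the 20 was called, against 0.974% of all tested miRNAs. An unadjusted limma p under 0.05 was found for 2 of the 20, beside 10.4% of all tested miRNAs. Values were higher in SE-BDEV for 13 and lower for 7, with a median log2 difference of 0.097, beside 0.061 over all tested miRNAs, of which 57.5% had higher values. With let-7 left out of the total 9 of the 20 were higher and 43.5% of all tested miRNAs, so the balance depends on the scaling. The share of all tested miRNAs was 49% with median-of-ratios scaling, 48.1% after quantile normalization and 46.8% when the total omitted the 10 most abundant, and 12 of the 20 were higher with median-of-ratios scaling. The median over all tested miRNAs moved from 0.061 to -0.051 with let-7 left out, while miR-9-3p stood at 0.55 and miR-9-5p at 0.29. The 3 most abundant were miR-382-5p at a mean of 11698 RPM, miR-128-3p at 7065 RPM and miR-138-5p at 6768 RPM, with log2 differences of -0.33, 0.10 and 0.042 (limma adjusted p = 0.438, 0.901 and 0.963). miR-124-3p was thus exceeded by 1 of the 20, miR-382-5p of the imprinted Dlk1-Dio3 cluster.

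The extremes of the list were miR-132-5p, from an activity-induced neuronal hairpin, and miR-433-3p, from that imprinted cluster. miR-132-5p was at 74.5, 91.0 and 109 RPM in CON-BDEV 1, 2 and 3 and at 221, 155 and 201 RPM in SE-BDEV 1, 2 and 3, a log2 difference of 1.06 ± 0.31 (SE, limma adjusted p = 0.237). The groups did not overlap, as was so for 16.2% of all tested miRNAs. miR-132-5p was the 1 miRNA of the list called with the replicate number as a block, with array weights and in the authors' deposited table, where 3.25%, 1.95% and 1.12% of all miRNAs were called. miR-433-3p was at 62.3, 36.6 and 101 RPM in CON-BDEV 1, 2 and 3 and at 34.5, 38.8 and 41.9 RPM in SE-BDEV 1, 2 and 3, a log2 difference of -0.67 ± 0.37 (SE, limma adjusted p = 0.459).

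**Figure D4:**
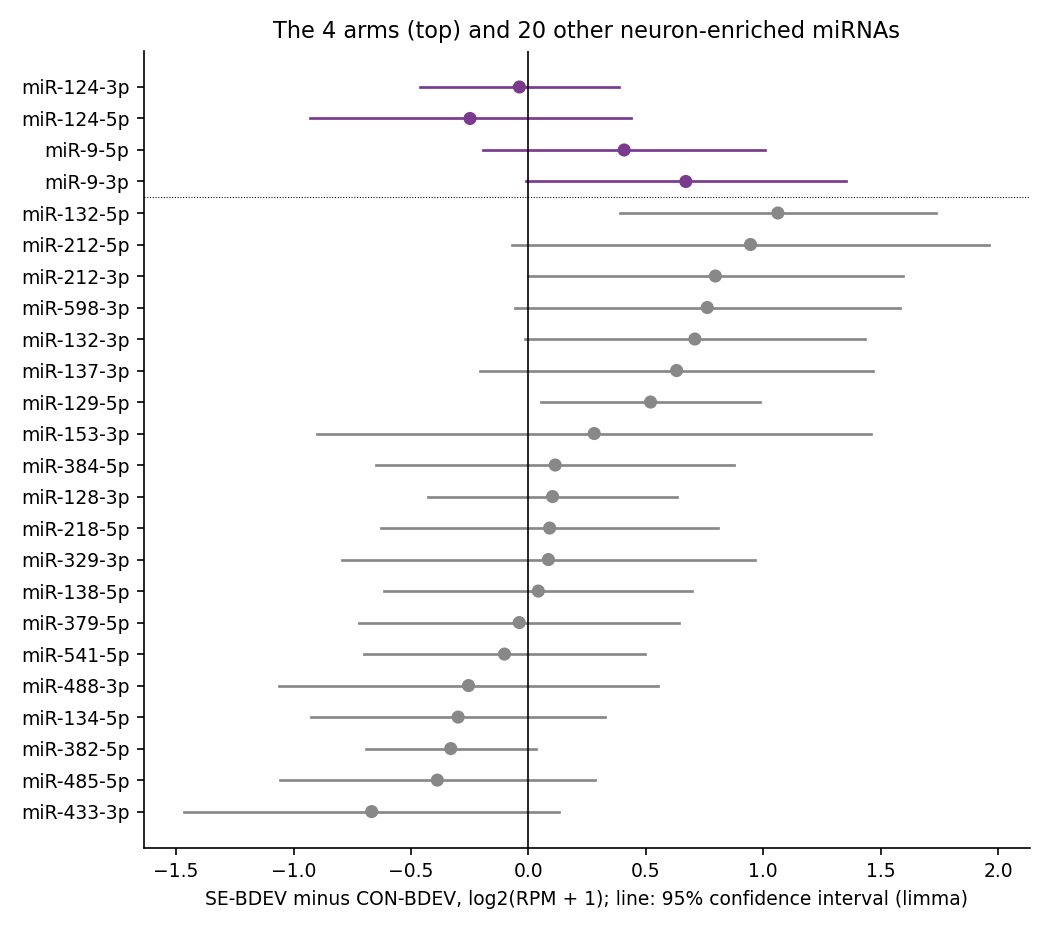
SE-BDEV minus CON-BDEV difference on the log2(RPM + 1) scale (horizontal axis; points) with 95% confidence intervals from limma (lines) for the 4 arms (purple, top) and 20 other neuron-enriched miRNAs (grey). The interval of each arm includes 0, and that of miR-9-3p reaches from -0.011 to 1.35.

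Among hairpins of the same list in the fit of arm ratios, miR-137 had a log2 arm ratio of -6.28, in favour of the 3p arm like miR-124, and miR-485 had 4.07 in favour of the 5p arm. The other 4 in the fit had smaller ratios, at -1.003 for miR-132, 0.90 for miR-153, -1.56 for miR-212 and 0.36 for miR-433, on either side of the 1.12 of miR-9 in size. Of these, miR-137 differed most between the groups, at -1.01 (limma adjusted p = 0.654).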

How the data were processed

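The data are small RNA libraries of brain-derived EVs, 3 CON-BDEV and 3 SE-BDEV. Per the labels' protocols, RNA came from a miRNeasy Micro Kit preparation with DNase and libraries from a QIAseq miRNA kit. The authors deposited RPM values, with the same sum in every library, and a table of their own comparison with a mean normalized signal, log2 fold changes, a test score and p-values. DESeq2 and mm9 are named in the submitters' processing notes. Neither the aligner and counter nor any use of molecular identifiers was given in the sources used here. All RPM were whole multiples of 1 step per library within 0.001 step, taken as 1 read, and the lowest listed value was 2 reads, so 0 can mean fewer reads. Since no single reads are listed, these read numbers served only for depth and counting error, and no count model was fitted. Depth allows a floor of 0.319 to 0.682 RPM for 3 reads, and counting errors cover counting only.

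limma 3.58.1 (R 4.3.3, statmod 1.5.0; trend, robust, two-sided) was fitted to log2(RPM + 1), a scale that understates changes of low miRNAs, for the 308 miRNAs averaging at least 10 RPM, with Benjamini-Hochberg adjustment and calls under 0.05. Arm ratios, log2 of (5p + 1)/(3p + 1), were fitted likewise without trend over 51 hairpin names with both arms in rows of their own. Other ratios had exact two-sided permutation tests in scipy 1.17.1. The fits were also run on simulated data, with the same spread beyond counting for every miRNA and no outlying library. Those runs therefore do not show how the fits behave on the present libraries. Named miRNAs are the 4 arms, their b-lettered relatives, the 5 most correlated with miR-124-3p and with miR-9-5p, their 2 neighbours by level on each side, and on the neuronal list the 3 most abundant, the extremes and the hairpins with both arms. The members and lists were chosen with earlier results of these data known. Alternatives were the pseudocount, filter, scaling, weights, replicate block, left-out libraries and the authors' deposited table. Same-numbered libraries had correlated deviations from group means (r of 0.216, 0.202 and 0.462). Among differently numbered libraries, CON-BDEV 2 with SE-BDEV 1 gave 0.336 and CON-BDEV 1 with SE-BDEV 2 gave 0.200. The rest lay between -0.410 and -0.270. Without miR-24-3p the same-numbered values were -0.064, -0.061 and -0.081, and the labels do not state a pairing. Figures used matplotlib 3.10.9.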

Additional observations from a re-analysis of the deposited data

How the results depend on the processing

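None of the 4 arms and neither arm ratio was called under any alternative run. miR-9-3p stayed higher in SE-BDEV under all 19 (log2 difference 0.32 to 0.86, adjusted p from 0.171 to 0.857), as did miR-9-5p (0.063 to 0.63, adjusted p from 0.33 to 0.948), and miR-124-5p stayed lower under all 18 (-0.44 to -0.083, adjusted p from 0.562 to 0.936). Among these, the filters by mean RPM and the replicate block could not change a log2 difference, only its p-value. Where a mean of at least 100 RPM was required, miR-124-5p and the miR-124 arm ratio were not tested. miR-124-3p changed sign when single libraries were left out, from -0.17 to 0.0925. The ratios of miR-9-5p and of miR-9-3p to miR-124-3p kept their direction (0.17 to 0.57 and 0.43 to 0.87). The number of called miRNAs, 3 in all, became 1 when a mean of at least 100 RPM was required (129 tested), 6 under array weights, 7 in the authors' deposited table (5 higher, 2 lower) and 10 under the replicate block (9 higher, 1 lower). It ranged from 2 to 8 when single libraries were dropped, with 8 for the fit lacking CON-BDEV 2 (4 higher, 4 lower). With the replicate block the adjusted p was 0.955 for miR-124-3p, 0.804 for miR-124-5p, 0.398 for miR-9-5p and 0.171 for miR-9-3p, and it changed no call of an arm or arm ratio. Of the neuronal list 1 was called with the block, 1 with array weights and 1 in the authors' deposited table. The causes were not tested. The planned edgeR and DESeq2 fits, with or without a block, were not run: no single reads are listed, so the recovered read numbers are incomplete at the low end and served only for depth and counting error.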
